A study of Mus musculus with 21 samples.

Results

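The mitochondrial ribosome makes the few proteins that are encoded in mitochondrial DNA, all of them subunits of the respiratory chain and ATP synthase. Its RNA comes from mitochondrial DNA, whereas each of its proteins is encoded in the nucleus, made on cytosolic ribosomes and imported. A large subunit (proteins named Mrpl) joins amino acids and a small subunit (Mrps) reads the mRNA. Part of these proteins descend from bacterial ribosomal proteins and part are found only in mitochondria. The genes were taken as all rows of the expression table whose name is Mrpl or Mrps followed by a number, pseudogenes left out, which gave 77 of 24206 gene names. Of these, 76 had a mean of at least 1 RPKM (reads of a gene divided by its length and by the depth of the library) in the stroke experiment and were tested among 9838 genes, and 76 did so in the beta-catenin experiment and were tested among 11252. Mrps11 (0.801 RPKM) lay just under the limit and Mrpl38 (1.02 RPKM) just over it in the first, Mrpl54 (0.980 RPKM) and Mrpl28 (1.42 RPKM) in the second. By textbook assignment 50 members belong to the large subunit, Mrps30 and Mrps18a among them despite their names, and 26 to the small subunit. Mrps36 matches the name but is now placed in the 2-oxoglutarate dehydrogenase complex, so it is counted among the 77 and in neither subunit.

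RNA was sequenced from endothelial cells, the lining of blood vessels, isolated from the brains of adult mice (C57BL/6, 12 to 20 weeks old) by sorting live cells with CD31 and without CD45 or PDGFRb on their surface. In the stroke experiment, Cko-ST and Cko-NS (Gpr124 flox/-; ROSA-CreER+) and WT-ST and WT-NS (Gpr124 flox/+; ROSA-CreER+) had 4 libraries each. Gpr124 encodes a receptor that acts with Wnt ligands in brain vessels. All 4 groups had the middle cerebral artery closed for 1 h and reopened for 1 day, with ST the stroke and NS the other side of the brain, so NS is not tissue from an unoperated mouse. The WT animals carry a floxed allele and Cre as well, and ROSA-CreER is not restricted to endothelium. In the beta-catenin experiment, Bcat (Ctnnb1 lox(ex3)/+; Cdh5-CreER+, n = 3), in which exon 3 of beta-catenin can be removed to stabilise the protein, was set against WT (Ctnnb1 +/+; Cdh5-CreER+, n = 2), with Cre driven by an endothelial promoter. The stroke libraries hold the 3′ ends of polyadenylated RNA and the others total RNA made with different kits, so levels are not compared between the experiments. No label ties a library to an animal of its own, and a p-value therefore weighs a difference only against the scatter of these samples, which may be technical.

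Depth of the stroke libraries, estimated from the spacing of low values, in units of 1 M reads, was 4.73 to 19.7, with means of 15.0 in Cko-ST, 9.10 in Cko-NS, 10.9 in WT-ST and 8.42 in WT-NS. One RPKM in a transcript of 1 kb then stands for 4.73 to 19.7 reads. Mean depth was higher in ST than in NS in both genotypes. In WT the libraries overlapped widely (6.56 to 19.3 in WT-ST against 4.73 to 14.6 in WT-NS). In Cko they barely did (11.56 to 19.7 in Cko-ST against 7.23 to 11.58 in Cko-NS). The part of depth in the results was not tested. For the 5 beta-catenin libraries the depth is unknown. Gpr124 itself was at 0.50, 1.72, 1.72 and 1.52 RPKM in Cko-ST against 8.12, 5.94, 2.92 and 2.98 RPKM in WT-ST, and at 2.03, 0.994, 3.15 and 4.85 RPKM in Cko-NS against 3.01, 7.58, 4.74 and 2.65 RPKM in WT-NS. Neither difference passed the test (limma, log2 fold change -1.28 ± 0.39 SE, adjusted p = 0.764, and -0.57 ± 0.39, adjusted p = 0.533), and whether 3′ reads fall inside the deleted part is not given in the sources used here. Ctnnb1 was at 244, 250 and 169 RPKM in Bcat against 300 and 310 RPKM in WT, a gene total that does not read exon 3 (-0.48 ± 0.24, adjusted p = 0.957). The 5 beta-catenin libraries are all labelled male, and their RNA accords with that. All stroke libraries are labelled female except Cko-ST replicates 3 and 4, but Xist, the RNA of the inactive X, was at 89.7 RPKM in Cko-ST replicate 3 and 1.48 RPKM in Cko-NS replicate 4. In the same libraries 4 Y-linked genes summed to 0.423 RPKM in Cko-ST replicate 3 and 189 RPKM in Cko-NS replicate 4. These 2 libraries, called discordant in sex from here on, were left out in a repeat of each test that uses Cko libraries. Cko-ST replicate 4 was male by RNA as well as by label (Xist 0.776 RPKM) and stayed in the repeats. By RNA the full Cko groups thus hold a male library on either side, and the repeats hold a male library in Cko-ST alone. The repeats therefore do not balance sex, and the part of sex in their results was not tested. Exchanging the 2 discordant libraries would bring both sex labels into accord with the RNA and would also move a library between ST and NS. Whether libraries or only sex labels were exchanged is not given in the sources used here, and the labels were kept. A sum of 7 astrocyte markers that separated all Cko-ST from all Cko-NS libraries as labelled is given with the other cell markers. All 12 markers used for endothelial cells averaged at least 1 RPKM in each of the 6 groups.

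Promoters of 68 of the 77 members were found among RefSeq promoter sequences (GRCm38.p6, 250 bases before to 50 after the start). They were searched on both strands for short motifs bound by factors known as regulators of nuclear genes for mitochondria. The NRF1 motif (GCGC, any base, then TGCGC) stood in 13 promoters (19.1%, against 5.19% of the promoters of 27025 genes), the ETS motif CCGGAAG, of the kind bound by GABPA (also called NRF2), in 25 (36.8% against 9.93%) and the YY1 motif AAGATGGCG in 8 (11.8% against 1.64%). At least 1 of these motifs stood in 40 of the 68 promoters (58.8%, against 15.1% of all genes). Among 66 promoters of nuclear respiratory chain genes the share was 51.5%. The 27025 genes include many that were not tested here, and shares over the tested genes alone were not counted. Each motif was counted by itself, also where matches overlap. A match is a description of the letters and not evidence of binding. The windows of 4 members that rose with stroke (below) are shown with motif matches in capitals, since they differ in what they hold. Mrpl17 (chr7:105811038-105811337, minus strand) has 1 NRF1 and 1 ETS match, Mrpl33 (chr5:31613701-31614000, plus strand) has 1 ETS match, Mrpl52 (chr14:54426659-54426958, plus strand) has 2 ETS matches read on the other strand, and Mrpl23 (chr7:142532782-142533081, plus strand) has none. The windows follow RefSeq starts. Those of Mrpl33 and Mrpl23 lie inside the GENCODE gene spans given below, so the bases before the GENCODE starts of these genes are not in the windows.
Mrpl17: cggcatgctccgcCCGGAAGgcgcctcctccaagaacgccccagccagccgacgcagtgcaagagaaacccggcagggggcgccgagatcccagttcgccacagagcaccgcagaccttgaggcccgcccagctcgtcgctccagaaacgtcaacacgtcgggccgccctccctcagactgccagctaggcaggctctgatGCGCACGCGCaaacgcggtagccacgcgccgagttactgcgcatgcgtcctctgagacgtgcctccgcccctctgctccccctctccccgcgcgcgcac
Mrpl33: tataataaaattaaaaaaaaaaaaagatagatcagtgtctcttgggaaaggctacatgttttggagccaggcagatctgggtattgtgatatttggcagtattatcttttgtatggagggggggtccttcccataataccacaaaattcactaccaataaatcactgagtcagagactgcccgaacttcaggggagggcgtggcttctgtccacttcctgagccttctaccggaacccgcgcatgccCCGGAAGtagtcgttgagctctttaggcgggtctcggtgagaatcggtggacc
Mrpl52: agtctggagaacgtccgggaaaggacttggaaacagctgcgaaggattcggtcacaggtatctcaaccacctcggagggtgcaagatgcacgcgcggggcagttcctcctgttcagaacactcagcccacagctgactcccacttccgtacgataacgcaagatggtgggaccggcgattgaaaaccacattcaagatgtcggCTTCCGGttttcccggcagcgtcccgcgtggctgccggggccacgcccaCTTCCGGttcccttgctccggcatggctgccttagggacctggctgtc
Mrpl23: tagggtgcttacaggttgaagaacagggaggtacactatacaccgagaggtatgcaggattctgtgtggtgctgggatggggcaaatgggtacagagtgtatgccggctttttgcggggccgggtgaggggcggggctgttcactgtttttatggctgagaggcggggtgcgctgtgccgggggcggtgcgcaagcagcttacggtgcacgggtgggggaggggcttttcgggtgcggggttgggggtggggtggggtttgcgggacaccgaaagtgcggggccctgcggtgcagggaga

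The members were present at very unequal levels (plot of levels by gene). In the 16 stroke libraries the mean was highest for Mrpl33 (90.2 RPKM), Mrpl52 (83.5), Mrps21 (81.1) and Mrpl24 (67.3). Mrpl33, Mrps21 and Mrpl24 are relatives of bacterial ribosomal proteins, and Mrpl52 is specific to mitochondria. Together these 4 genes made up 30.7% of the summed RPKM of the family, and the top 10 made up 50.6%. The lowest were Mrps11 (0.801), Mrpl38 (1.02) and Mrps5 (1.43 RPKM). The median member was at 7.11 RPKM, with 28 members at 10 RPKM or more and 23 under 5. The 50 large subunit genes had a median of 6.77 RPKM and the 26 small subunit genes a median of 7.85 RPKM; the difference was not tested. No member was at 0 in any stroke library. A level per gene length in a 3′ library depends on the length used to scale it, so differences between genes are not amounts of mRNA per ribosome.

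**Figure D1:**
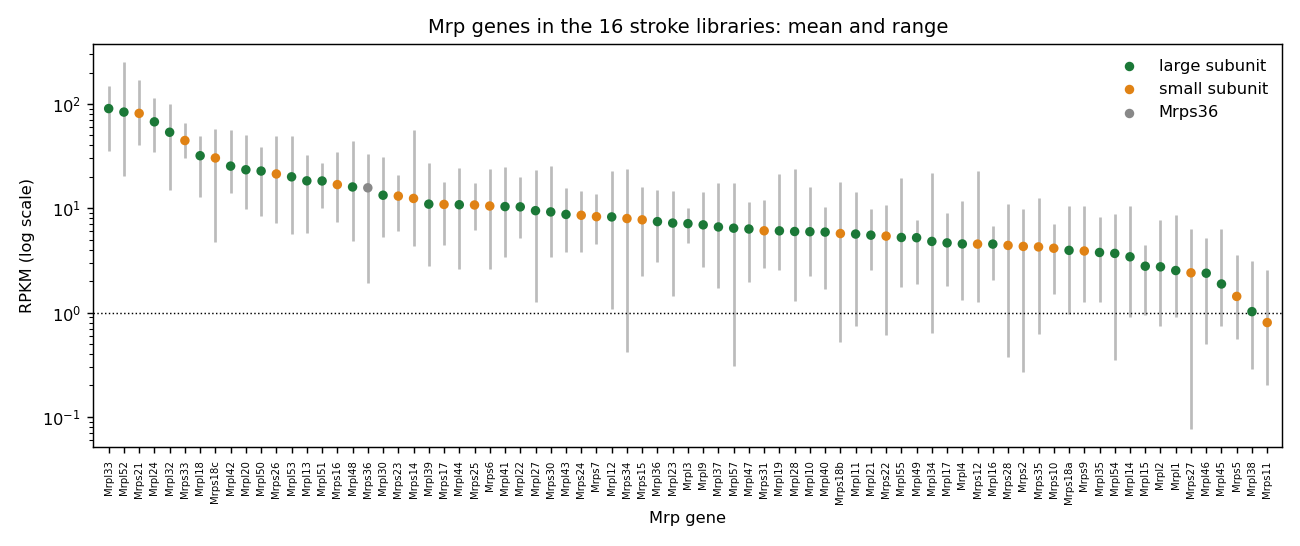
Mean RPKM over the 16 stroke libraries (points, log scale) and lowest to highest library (grey lines) for each of the 77 Mrp genes, ordered by mean, with large subunit genes in green and small subunit genes in orange. The dotted line is the limit of 1 RPKM, and means run from 90.2 RPKM (Mrpl33) to 0.801 RPKM (Mrps11).

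In the total RNA of the beta-catenin experiment the highest means were those of Mrpl33 (30.0 RPKM), Mrpl24 (27.4), Mrps33 (25.6) and Mrpl39 (22.0), and the lowest those of Mrpl54 (0.980), Mrpl28 (1.42) and Mrpl11 (1.87). Mrpl33 and Mrpl24 were thus among the 4 highest in both experiments, and the median member was at 6.30 RPKM. A member was listed at 0 in 4 libraries, which were Mrpl54 in Bcat replicate 1 and WT replicate 1 and Mrpl14 in Bcat replicate 2 and WT replicate 2. Single members varied widely between replicates. Their median coefficient of variation within a group was 33.8% in Cko-ST, 47.1% in Cko-NS, 35.3% in WT-ST, 40.9% in WT-NS, 69.2% in Bcat and 47.2% in WT, against 11.6 to 25.6% for the genes of the cytosolic ribosome and 25.3 to 41.4% for all tested genes in the same groups.

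Summed over the 77 genes, the family lay between 772 and 1348 RPKM in every stroke library (plot of summed RPKM). In such bulk samples fewer cells of a type and less RNA per cell cannot be told apart. The sum was 1018, 1267, 1037 and 1348 RPKM in Cko-ST and 892, 1175, 1136 and 984 RPKM in Cko-NS. It was 1176, 1157, 856 and 1118 RPKM in WT-ST and 1005, 888, 953 and 772 RPKM in WT-NS. Group means were 1168 ± 165 RPKM in Cko-ST, 1047 ± 132 in Cko-NS, 1077 ± 149 in WT-ST and 905 ± 100 in WT-NS (SD, n = 4 each), and ST and NS overlapped in both genotypes. Without the 2 libraries of discordant sex the means were 1211 ± 172 RPKM in Cko-ST and 1068 ± 154 RPKM in Cko-NS (SD, n = 3 each). After median-of-ratios scaling, which sets the typical gene equal between libraries, the means were 1187 ± 151 RPKM in Cko-ST, 956 ± 103 in Cko-NS, 1062 ± 66.4 in WT-ST and 912 ± 115 in WT-NS. The genes of the cytosolic ribosome, summed in the same way from the deposited values, were at 28556 RPKM in Cko-ST, 21339 in Cko-NS, 26997 in WT-ST and 15192 in WT-NS. In the beta-catenin experiment the Mrp sum was 617, 645 and 551 RPKM in Bcat and 618 and 719 RPKM in WT, with means of 604 ± 48.3 RPKM in Bcat (SD, n = 3) and 669 ± 71.6 RPKM in WT (SD, n = 2).

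**Figure D2:**
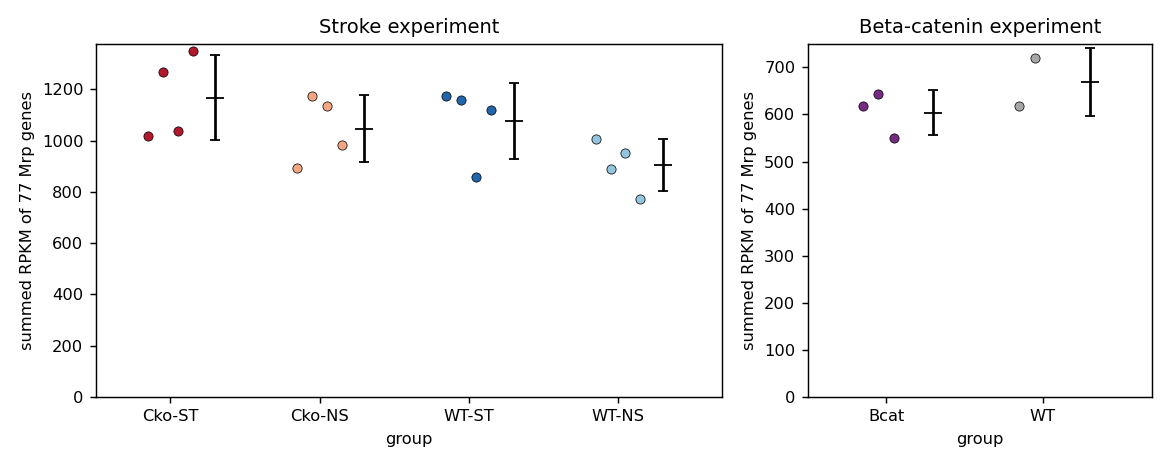
Summed RPKM of the 77 Mrp genes in each library (points) with the group mean and SD (bars), Cko-ST, Cko-NS, WT-ST and WT-NS on the left and Bcat and WT on the right. WT-NS has the lowest mean of the stroke groups (905 RPKM) and Cko-ST the highest (1168 RPKM), with overlapping libraries between ST and NS in each genotype.

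With stroke in WT animals (WT-ST against WT-NS), 4 of the 76 members rose and none fell. These 4 were Mrpl23 and Mrpl52 of the large subunit and Mrps6 and Mrps28 of the small subunit, each about 3 to 4 times higher in mean RPKM. The share of members that rose (5.26%) was below that of all tested genes, of which 8.46% rose and 4.84% fell (limma, adjusted p under 0.05). The median log2 fold change of the members was 0.23, against 0.01 over all tested genes, and 54 of 76 were above 0. In 6 members the lowest ST library was above the highest NS library, against 11.9% of all genes, and in 2 the reverse held, against 8.7%.

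Mrpl23 (chr7:142532686-142540747, GRCm38, plus strand), which sits at the exit of the peptide tunnel in the large subunit, was at 11.5, 10.0, 7.01 and 9.31 RPKM in WT-ST against 1.45, 1.97, 2.98 and 3.16 RPKM in WT-NS. All WT-ST libraries were above all WT-NS libraries, with a log2 fold change of 1.64 ± 0.29 (SE, adjusted p = 9.74e-04). Mrpl52 (chr14:54426909-54429756, plus strand), a mitochondria-specific large subunit protein, was at 82.8, 96.1, 78.6 and 89.8 RPKM in WT-ST against 45.0, 20.4, 24.2 and 22.4 RPKM in WT-NS. The groups were again apart, even though WT-NS replicate 1 was well above the other WT-NS libraries (1.67 ± 0.33, adjusted p = 0.00228). Mrps28 (chr3:8802146-8923918, minus strand), a small subunit protein, was at 10.5, 5.42, 6.33 and 4.98 RPKM in WT-ST against 1.76, 1.99, 3.15 and 2.18 RPKM in WT-NS. These did not overlap either (1.22 ± 0.34, adjusted p = 0.0207), but the call was lost without WT-NS replicate 1 (adjusted p = 0.0562) or WT-ST replicate 1 (adjusted p = 0.0752). Mrps6, the relative of a bacterial small subunit protein, was at 21.1, 12.6, 5.27 and 23.7 RPKM in WT-ST against 4.06, 5.35, 3.44 and 2.64 RPKM in WT-NS. Here WT-ST replicate 3 lay within the range of WT-NS (1.62 ± 0.43, adjusted p = 0.0172), and the call was lost without WT-NS replicate 4, WT-ST replicate 1 or WT-ST replicate 4 (adjusted p = 0.0545, 0.0615 and 0.0625). In GENCODE, Mrps6 (chr16:92058270-92112227, GRCm38, plus strand) shares 159 exon bases with Slc5a3, a myo-inositol transporter gene on the same strand, whose own log2 fold change was 0.06 ± 0.33 (adjusted p = 0.935).

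Among members outside these 4, Mrps16 (log2 fold change 0.94 ± 0.31, adjusted p = 0.0554) and Mrpl33 (0.76 ± 0.27, adjusted p = 0.0674) came next on the high side and Mrps25 (-0.76 ± 0.27, adjusted p = 0.0710) on the low side; these were named after their values were seen. The 2 subunits gave like figures, with 2 of 50 large subunit genes raised and a median of 0.21, and 2 of 25 small subunit genes raised and a median of 0.28. Members with bacterial relatives had a median of 0.38 (3 of 47 rose) and mitochondria-specific members a median of 0.03 (1 of 28 rose); the difference between these classes was not tested. Genes of the cytosolic ribosome, set beside them, had a median of 0.84, with 60 of 85 raised and none lowered. Nuclear genes of the respiratory chain had a median of 0.36, with 14 of 78 raised.

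With stroke in Cko animals (Cko-ST against Cko-NS), 4 of 76 members (5.26%) rose as well and none fell, against 6.44% of all tested genes raised and 8.71% lowered. The members were Mrps28, Mrpl33, Mrpl17 and Mrps18b. The median log2 fold change was 0.09 for the members and -0.13 for all tested genes, with 45 of 76 members above 0. In these 4 members the ST libraries were all above the NS libraries (7.4% of all genes), and in none were they all below (11.4% of all genes). Scaling moved the typical gene by more than 0.1 here, so relative to the typical gene (median -0.01 after scaling) the members' median was 0.23 and 5 rose, Mrpl21 being added.

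Mrps28 was the one member that rose in both genotypes. It was at 7.88, 10.9, 4.09 and 6.11 RPKM in Cko-ST against 0.957, 1.22, 2.51 and 0.372 RPKM in Cko-NS, with no overlap (log2 fold change 1.88 ± 0.34, adjusted p = 9.37e-04). Mrpl33 (chr5:31596935-31664384, plus strand), the member with the highest level, was at 143, 148, 102 and 142 RPKM in Cko-ST against 42.1, 80.3, 79.5 and 35.6 RPKM in Cko-NS. All Cko-ST libraries were higher (1.23 ± 0.27, adjusted p = 0.00436). Both calls held when any single library of the 2 groups was left out. Mrpl17 (chr7:105803206-105811099, minus strand), a large subunit protein with a bacterial relative, was at 6.54, 8.04, 3.74 and 6.71 RPKM in Cko-ST against 1.79, 3.71, 2.27 and 1.81 RPKM in Cko-NS. The lowest Cko-ST and highest Cko-NS libraries almost touched (1.09 ± 0.31, adjusted p = 0.0243), and the call was lost without any one of 6 libraries, with adjusted p between 0.0504 (without Cko-NS replicate 3) and 0.0782 (without Cko-ST replicate 2); it held only without Cko-NS replicate 2 or Cko-ST replicate 3. Mrps18b (chr17:35910379-35916389, minus strand), related to a bacterial small subunit protein, was at 6.57, 17.8, 6.85 and 4.89 RPKM in Cko-ST against 0.521, 4.42, 3.76 and 3.0 RPKM in Cko-NS. The groups did not overlap (1.35 ± 0.44, adjusted p = 0.0460), but the call was lost in 6 of the 8 cases with 1 library left out, up to adjusted p = 0.145 without Cko-NS replicate 1 and 0.160 without Cko-ST replicate 2, and held only without Cko-NS replicate 2 or Cko-ST replicate 4. Without the 2 libraries whose RNA goes against the labelled sex, Mrps28 (1.87, adjusted p = 0.00170), Mrpl33 (1.15, adjusted p = 0.010) and Mrpl17 (1.21, adjusted p = 0.0296) kept their calls, Mrps18b did not (adjusted p = 0.0790), Mrpl21 rose, Mrpl24 and Mrps25 fell, and the members' median was 0.06. With 1 library left out, the count of members that rose was lowest (2) without Cko-NS replicate 1, Cko-ST replicate 1 or Cko-ST replicate 2.

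By class, 2 of 50 large subunit genes rose with a median of 0.11 and 2 of 25 small subunit genes with a median of -0.08, which was 0.07 after scaling. Members with bacterial relatives had a median of 0.12 (4 of 47 rose) and mitochondria-specific ones 0.05 (0 of 28). The cytosolic ribosome had 26 of 85 genes raised and a median of 0.41, or 40 and 0.57 after scaling, and the respiratory chain had 2 raised and 2 lowered of 78 with a median of 0.05.

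**Figure D3:**
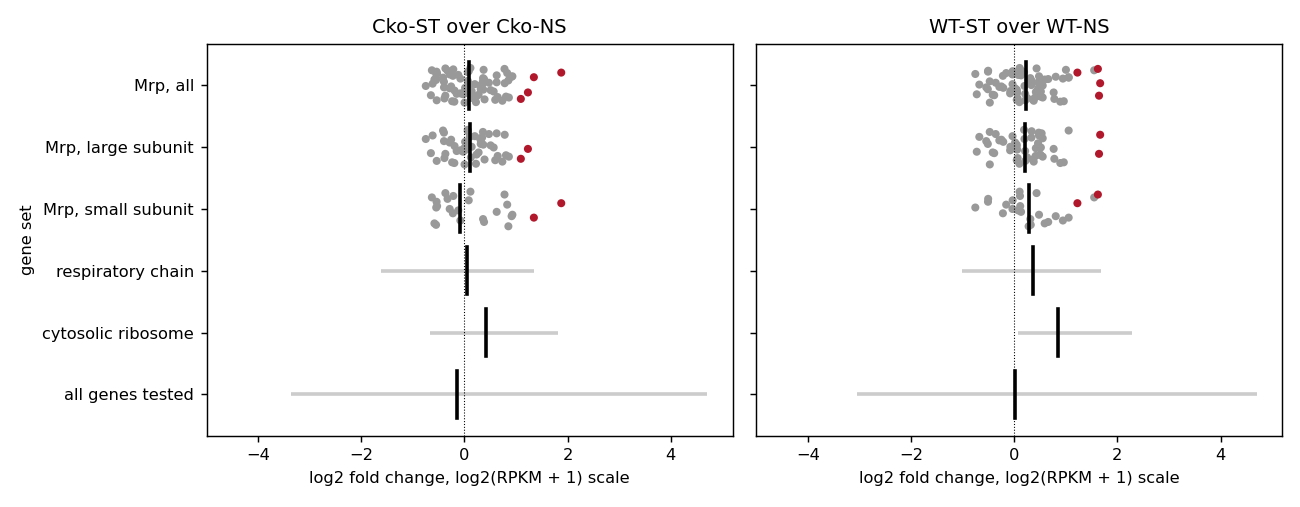
Log2 fold change with stroke in Cko (left) and WT (right), 1 point per Mrp gene (red, rose at adjusted p under 0.05), with black bars at the median of each set. For the comparison sets the grey line spans the lowest to the highest gene, and the cytosolic ribosome has the highest median of the sets shown in both genotypes (0.41 in Cko, 0.84 in WT), while the Mrp medians are 0.09 in Cko and 0.23 in WT.

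The stroke effects in the 2 genotypes share no library. Over the 76 members they correlated weakly (Pearson's r = 0.30, Spearman's rho = 0.28, a description across genes measured in the same libraries), and 43 members had the same sign. In all, 7 genes rose in either genotype and 1 in both, which is 25% of the calls in each. The correlation and the shares of shared signs and calls were not computed over all tested genes. Whether they are particular to the members is therefore not known. A gene called in 1 genotype alone is not thereby shown to differ between them. In WT, the log2 fold changes of the Cko calls were 0.76 for Mrpl33 (adjusted p = 0.0674), 0.78 for Mrpl17 (0.113) and 1.05 for Mrps18b (0.125). In Cko, those of the WT calls were -0.37 for Mrpl23 (adjusted p = 0.426), 0.78 for Mrpl52 (0.120) and 0.78 for Mrps6 (0.243). Mrpl23 was thus the only one of the 7 with opposite signs.

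**Figure D4:**
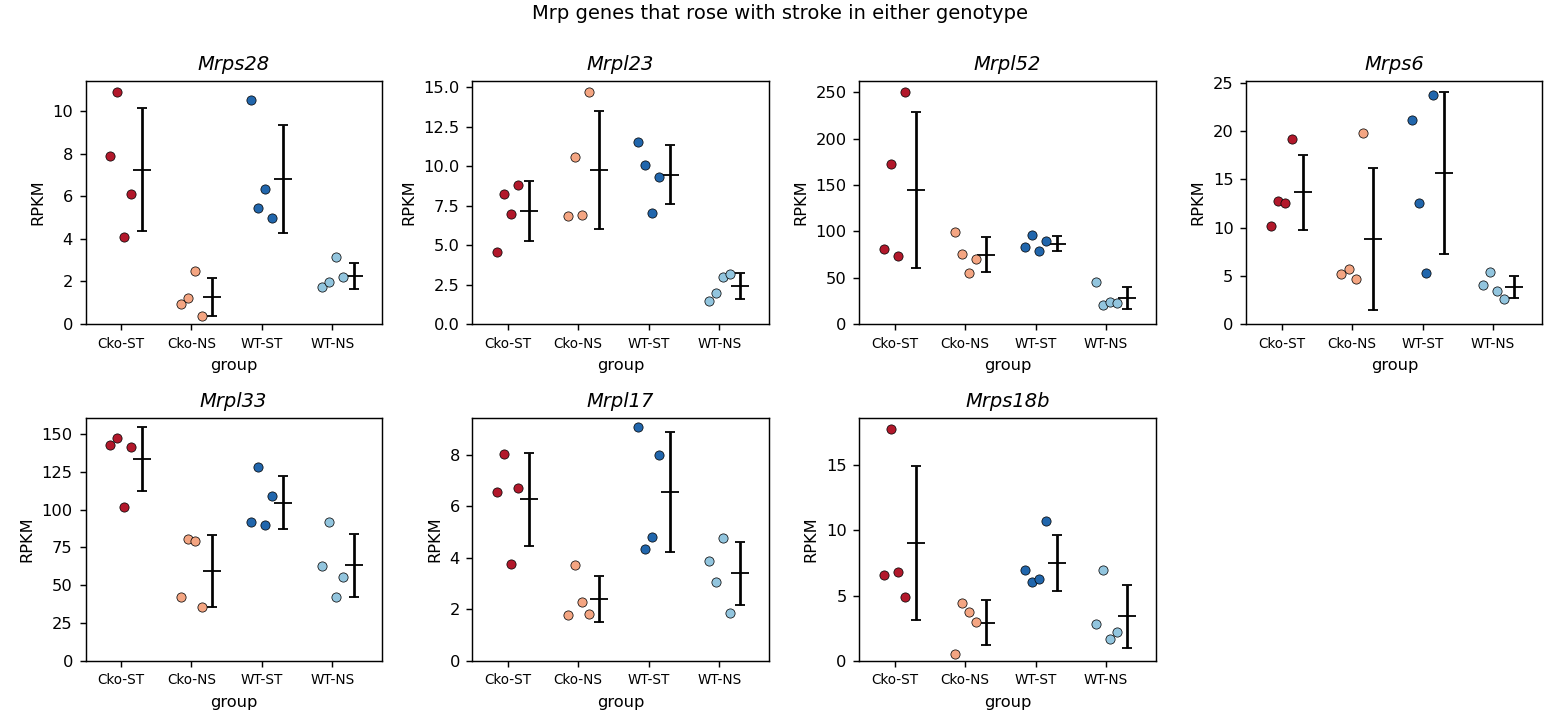
RPKM in each library (points) with group mean and SD (bars) for the 7 Mrp genes that rose with stroke in either genotype, in Cko-ST, Cko-NS, WT-ST and WT-NS. Mrps28 is higher in ST than in NS in both genotypes without overlap, and Mrpl23 is low in WT-NS alone (1.45 to 3.16 RPKM, against 4.58 to 14.7 RPKM in the other 3 groups).

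The interaction of genotype and stroke, which tests that difference itself, passed for no member and for no other gene (0.0%, limma). At an unadjusted p under 0.05 there were 6 members and 7.02% of all genes. Mrpl23 had the lowest p, with a log2 difference of -2.01 ± 0.41 (95% interval -2.88 to -1.15, unadjusted p = 1.18e-04, adjusted p = 0.447). Mrps35, a mitochondria-specific small subunit protein, had -2.18 ± 0.79 and Mrpl51, of the large subunit, -1.09 ± 0.39 (adjusted p = 0.681 for both). The median interaction was 0.01 over the members and -0.14 over all genes, and 0.16 against 0.00 after scaling. Without the libraries of discordant sex the members' median was -0.03, and no member passed.

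On the NS side, Cko-NS against WT-NS, 1 of 76 members rose (1.32%) and none fell, where 0.224% of all genes rose and 0.0915% fell. That gene was Mrpl23, at 6.85, 10.6, 6.93 and 14.7 RPKM in Cko-NS against 1.45, 1.97, 2.98 and 3.16 RPKM in WT-NS. No library overlapped (log2 fold change 1.64 ± 0.29, adjusted p = 0.0189). The same WT-NS libraries are the low side of its stroke effect in WT, so these 2 calls are not independent. The call was lost without WT-NS replicate 1 (adjusted p = 0.0603), without WT-NS replicate 4 (0.0592), with only these 8 libraries in the fit (0.112) and without the libraries whose RNA goes against the labelled sex (0.0501). In 7 members, Mrpl2, Mrpl11, Mrpl23, Mrpl41, Mrpl51, Mrpl52 and Mrps7, all Cko-NS libraries were above all WT-NS libraries (6.66% of all genes), and in none all below (2.04%). The members' median was 0.05, below that of all genes (0.11), and -0.06 after scaling, when that of all genes was 0.00. Its sign therefore depends on the scaling. Without the libraries of discordant sex it was 0.14. Cytosolic ribosome genes had a median of 0.47 (1 of 85 rose) and respiratory chain genes 0.34 (1 of 78 rose).

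On the ST side, Cko-ST against WT-ST, no member passed and no other gene did (0.0%, limma), also without the libraries of discordant sex; 2 members and 4.84% of all genes had an unadjusted p under 0.05. These 2 were Mrpl42 and Mrpl2. Mrpl42, a mitochondria-specific large subunit protein, was at 28.2, 25.5, 25.3 and 43.9 RPKM in Cko-ST against 20.6, 19.2, 14.0 and 16.8 RPKM in WT-ST, groups that did not overlap (0.74 ± 0.28, adjusted p = 0.994, 95% interval 0.15 to 1.33). Mrpl2, at the catalytic core of the large subunit, was at 3.20, 4.68, 4.75 and 7.76 RPKM in Cko-ST against 1.79, 5.47, 0.748 and 1.57 RPKM in WT-ST, with overlap (0.97 ± 0.38, adjusted p = 0.994). Mrps35 came next at -1.12 ± 0.56 (adjusted p = 0.994). Beyond Mrpl42, 1 further member was apart, Mrps36, which was lower in Cko-ST; the shares over all genes were 1.46% higher and 1.86% lower. The members' median was 0.02 and that of all genes -0.03.

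In the beta-catenin experiment no member passed in Bcat against WT, nor did any other of the 11252 genes (0.0%, limma). At an unadjusted p under 0.05 there were 6 members and 5.24% of all genes. In simulated data with 3 libraries against 2, 100 of 11252 genes were changed by 2 on the log2 scale and 100 by 1. The fit found 0% of either there, so its power was low in that setting. So few changed genes make the adjusted threshold strict. The noise of each gene was drawn there with its own residual SD from these few libraries, and the share holds for that setting only. The members' median log2 fold change was -0.25, against -0.06 over all genes, and -0.19 against 0.01 after scaling, with 27 of 76 members above 0 (plot of Bcat effects). The large subunit had a median of -0.21 and the small subunit -0.36. Cytosolic ribosome genes had a median of -0.25 and respiratory chain genes -0.12. Beside these medians, red-cell markers summed to 25989 to 51450 RPKM in Bcat against 23382 to 24812 RPKM in WT, astrocyte markers to 30.4 to 40.2 RPKM in Bcat against 15.2 to 25.2 RPKM in WT, and microglia markers to 3.44 to 7.07 RPKM in Bcat against 1.75 to 2.88 RPKM in WT, all without overlap. Few of these markers were above the floor: 4 of 7 for astrocytes averaged at least 1 RPKM in Bcat and 1 in WT. For microglia it was 2 of 12 in Bcat and 0 in WT. Among all genes, 8.66% were higher in Bcat without overlap. Mural, leukocyte, neuron, oligodendrocyte and endothelial sums overlapped (endothelial 3597 to 4719 RPKM in Bcat against 4384 to 5137 RPKM in WT). The part of these cells in the medians was not tested.

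The 3 members with the lowest p were Mrpl16, Mrps15 and Mrps22. Mrpl16 (chr19:11770391-11774960, plus strand), a large subunit protein with a bacterial relative, was at 12.8, 31.1 and 25.3 RPKM in Bcat against 4.08 and 1.64 RPKM in WT (2.63 ± 0.51, adjusted p = 0.494). Mrps15, of the small subunit, was at 20.2, 6.96 and 8.27 RPKM in Bcat against 1.33 and 0.910 RPKM in WT (2.46 ± 0.59, adjusted p = 0.689). Mrps22, a mitochondria-specific small subunit protein, was at 1.49, 2.69 and 4.44 RPKM in Bcat against 18.8 and 8.62 RPKM in WT (-1.90 ± 0.58, adjusted p = 0.871). None of these overlapped between groups. Groups without overlap were found for 4 members on the high side, against 8.66% of all genes, and 8 on the low side, against 11.7%. Mrpl33, the highest member, showed how far single libraries spread, at 0.613, 31.0 and 35.6 RPKM in Bcat against 13.6 and 69.3 RPKM in WT.

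**Figure D5:**
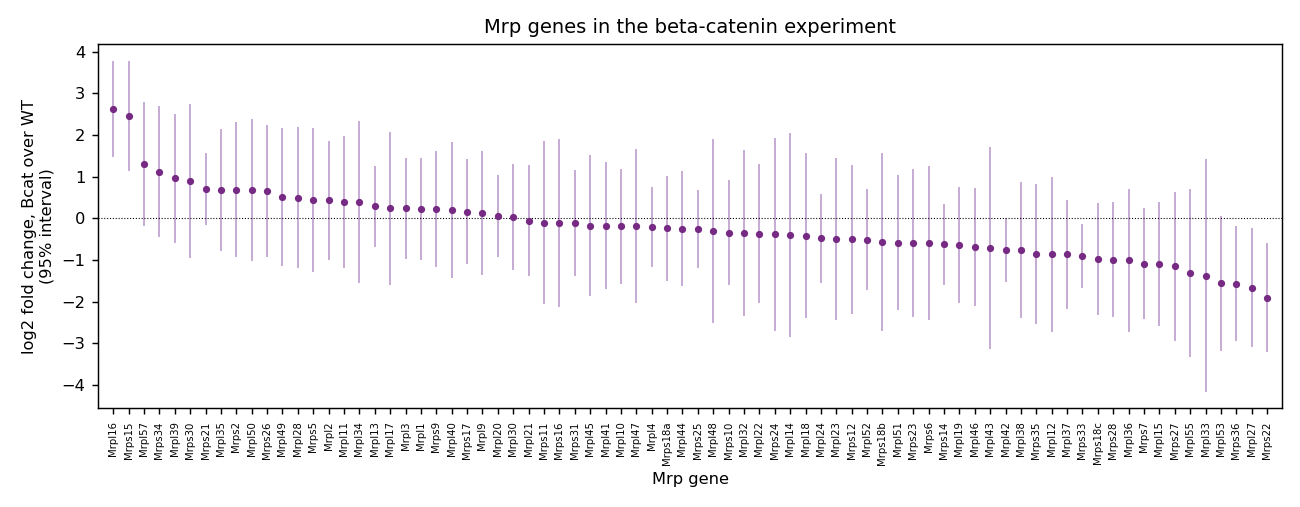
Log2 fold change of each tested Mrp gene in Bcat over WT, log2(RPKM + 1) scale, with its 95% interval (lines), in falling order. Mrpl16 (2.63) and Mrps15 (2.46) lie at the high end and Mrps22 (-1.90) at the low end, and no gene passed the adjusted test.

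Other genes of mitochondrial translation were counted in the same way. None of 6 tested mitoribosome proteins with other names, 13 translation factors, 11 mitochondrial aminoacyl-tRNA synthetases or 12 genes of mitochondrial transcription and mRNA stability passed in either stroke comparison, where their medians lay between -0.22 and 0.25. Of 23 genes for assembly of the mitoribosome and modification of its RNA, 1 rose in WT and 2 fell in Cko, where 8.46% of all genes rose in WT and 8.71% fell in Cko, so these counts do not stand above the background. C1qbp, a mitochondrial matrix protein that binds RNA, was at 28.2 ± 4.23 RPKM in WT-ST against 8.23 ± 3.03 RPKM in WT-NS (SD, n = 4; 1.70 ± 0.37, adjusted p = 0.00429). Mettl17, a factor for small subunit assembly, was at 0.798 ± 0.440 RPKM in Cko-ST against 3.35 ± 0.494 RPKM in Cko-NS (-1.30 ± 0.27, adjusted p = 0.00297). Mterf4, which brings an RNA methyltransferase to the large subunit, was at 3.42 ± 0.971 RPKM in Cko-ST against 9.19 ± 2.71 RPKM in Cko-NS (-1.19 ± 0.27, adjusted p = 0.00641). Of 8 tested regulators of mitochondrial biogenesis, only Myc, a transcription factor known to drive ribosome and mitochondrial genes, passed. It was at 8.26 ± 3.65 RPKM in Cko-ST against 0.276 ± 0.179 RPKM in Cko-NS (2.79 ± 0.30, adjusted p = 9.00e-06) and at 6.03 ± 1.27 RPKM in WT-ST against 0.266 ± 0.359 RPKM in WT-NS (2.49 ± 0.30, adjusted p = 2.24e-05). No gene of these lists passed in the genotype or beta-catenin comparisons.

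Levels of markers of other cells are given as ranges over libraries, with no test. The sum of the 12 endothelial markers was 4296 to 6477 RPKM in Cko-ST against 5635 to 9810 RPKM in Cko-NS, and 3892 to 5671 RPKM in WT-ST against 5840 to 6142 RPKM in WT-NS, where all WT-ST libraries were below all WT-NS libraries. Summed RPKM of 8 red-cell markers, of which 7 or 8 averaged at least 1 RPKM in each stroke group, was 1642 to 21007 in Cko-ST against 6452 to 43297 in Cko-NS, and 4119 to 11467 in WT-ST against 9141 to 16007 in WT-NS. For 8 oligodendrocyte markers, 7 or 8 of them at that level, it was 22.2 to 283 in Cko-ST against 45.5 to 540 in Cko-NS, and 30.4 to 387 in WT-ST against 191 to 1050 in WT-NS. For 11 mural markers, 3 or 4 of them at that level, it was 15.6 to 103 in Cko-ST against 23.4 to 33.7 in Cko-NS, and 12.5 to 49.2 in WT-ST against 50.7 to 70.6 in WT-NS, with Anpep at 0 in all 16 libraries. Neuron, microglia and leukocyte sums reached at most 107 RPKM in any stroke library. Tmem119, of microglia, and Rbfox3 and Slc17a7, of neurons, were at 0 in all 8 ST libraries, and Cd3e, Nkg7 and Ccr2, of leukocytes, in all 16. The 7 astrocyte markers summed to 993 to 1076 in Cko-ST against 305 to 362 in Cko-NS, and 716 to 1164 in WT-ST against 220 to 283 in WT-NS. Of the 7, only 1 averaged 1 RPKM or more in Cko-ST, against 3 in Cko-NS, and 2 did so in WT-ST and 2 in WT-NS. The sum in Cko-ST is thus almost wholly that of 1 gene and does not show a rise of the list. Whether these cells have a part in the Mrp results was not tested.

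Exons of 23 members overlap those of a protein-coding gene in GENCODE, 4 of them on the same strand, and whether reads were counted by strand is not stated. Of the 7 genes that rose with stroke, Mrpl17, Mrpl23, Mrpl52 and Mrps28 overlap no annotated gene. Mrpl33 overlaps a noncoding transcript on its own strand, Mrps18b an antisense transcript, and Mrps6 Slc5a3 and a predicted gene on its own strand.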

How the data were processed

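The authors deposited RPKM values, 1 column per library. Per the submitters' processing notes edgeR and mm10 were used; the sources used here do not give the aligner, annotation, gene lengths or strand setting of counting. The table held 24260 rows, of which 54 sharing 23 names were left out; 8 columns that match no described sample were not used. RPKM values are not counts, so no count test was run. Relative depth came from exact ratios of low values between libraries, and its scale from GENCODE transcript lengths.

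Genes with a mean of at least 1 RPKM over the libraries of a fit were tested with limma 3.58.1 (R 4.3.3) on log2(RPKM + 1), a scale that understates changes of low genes. Moderated two-sided tests (eBayes with trend) were adjusted by Benjamini and Hochberg's method across every gene of the fit, at a threshold of 0.05. The 16 stroke libraries were modelled together as 4 groups, from which the stroke, genotype and interaction contrasts were taken, and the 5 beta-catenin libraries apart from them. Xist and Y-linked genes were left out. The members, the lists and the tests were chosen with earlier results of these data known, so lists are described by counts and medians, with no test of a list. Subunits, origins and lists (cytosolic ribosome, respiratory chain, mitochondrial translation, cell markers) were written by hand. Named are, for each comparison, up to 8 members per direction past the threshold, or the 3 with the lowest p where none passed; the 4 highest and 3 lowest members by level; the members next to the limit of 1 RPKM; up to 3 genes past the threshold from each list; members beyond these were named after their values were seen, to say which ones a small count holds.

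Alternatives were median-of-ratios scaling, quantile normalization, a pseudocount of 0.1, no filter or a filter of 5 RPKM, the replicate number as a block, fits of only the 2 groups compared, and fits without each library or without the 2 libraries whose RNA goes against the labelled sex. The block puts same-numbered libraries of all groups of a fit together, those of different genotypes included. It is therefore not a paired test, and no fit paired within a genotype was run. Same-numbered libraries deviated together in the stroke comparison of Cko (r = 0.100 to 0.214 over genes, every pair over 0.1). In the other comparisons at least 1 same-numbered pair was at or under 0.1; in that of WT all 4 pairs were above 0 (0.012 to 0.130). Differently numbered pairs lay at -0.162 to 0.054 in the stroke comparison of Cko, below every same-numbered pair. In that of WT they lay at -0.112 to 0.034, overlapping the same-numbered ones. By RNA both Cko libraries numbered 3 are female and both numbered 4 are male. The repeats without the libraries of discordant sex leave 1 Cko library at each of these numbers. These are patterns in the data, the labels do not say what the number marks, and pairing was not tested. Data of the same size were simulated with the residual SD of each gene as its noise. Of 9838 genes, 100 were changed by 1 and 100 by 2 on the log2 scale. The fit for stroke in WT found 30% of the former and 87% of the latter. Of the 126 calls in the simulated data, 9 were false. Many more genes passed in the real comparison (832 rose and 476 fell), and the adjusted threshold depends on that number. The shares found therefore hold for the simulated setting only.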

Additional observations from a re-analysis of the deposited data

Results flagged for a closer look

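The named members and the summed Mrp RPKM were examined in 60 groups of 4 libraries. In 7 of these, all of single members, 1 library had a gap to the nearest other above Dixon's 95% critical value for 4 samples. The gap was taken as a part of the group's range. Chance flags about 1 in 20 groups. Cko-ST replicate 3 was low for Mrpl33 (102 RPKM), Cko-ST replicate 4 was high for Mrpl42 (43.9 RPKM) and Cko-ST replicate 2 was high for Mrps18b (17.8 RPKM). Cko-NS replicate 4, one of the libraries whose RNA goes against the labelled sex, was high for Mrps6 (19.8 RPKM, against 4.70 to 5.65 RPKM in the other Cko-NS libraries). WT-ST replicate 1 was high for Mrps22 (8.09 RPKM). WT-NS replicate 1 was high for Mrpl52 (45.0 RPKM) and for Mrps35 (5.13 RPKM).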

How the results depend on the processing

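No called value changed sign under an alternative that was run. Counts of members that rose with stroke in WT ran from 4 to 7 over the alternatives other than leaving out 1 library, with 7 when only the 2 groups compared were fitted (Mrpl33, Mrps16 and Mrps36 added), and from 3 to 5 when 1 library was left out. Without the libraries whose RNA goes against the labelled sex, 1 member fell with stroke in WT (Mrps25; only the estimate of spread changed) and 2 fell in Cko (Mrpl24 and Mrps25); 6 rose in WT and 4 in Cko. In Cko, 2 members rose with a filter of 5 RPKM, where Mrps28 and Mrpl17 are too low to be tested, and 2 to 5 rose when 1 library was left out (2 without Cko-NS replicate 1, Cko-ST replicate 1 or Cko-ST replicate 2); after quantile normalization 6 rose (Mrpl21 and Mrps10 added) and the members' median was 0.26. Mrps18b also lost its call with a pseudocount of 0.1 (adjusted p = 0.0517), with no filter (0.102) and with only the 2 groups compared (0.0927). In Cko-NS against WT-NS, 2 members rose with a filter of 5 RPKM (Mrpl23 and Mrpl52), 0 with only the 2 groups compared, 0 without the libraries of discordant sex and 0 to 1 when 1 library was left out. With the replicate block, 5 members rose in WT (Mrpl33 added), the same 4 in Cko and 1 in Cko-NS against WT-NS, and the members' median in Bcat against WT was -0.22; no other call changed. The causes of these changes were not tested. No call was made for the interaction, for Cko-ST against WT-ST or for Bcat against WT under the alternatives run. Depth limits the low members most, since 23 of 77 had a mean under 5 RPKM.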
